A study of Mus musculus with 4 samples.

Results

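Sterols and fatty acids are built from cytosolic acetyl-CoA by 2 sets of enzymes under a shared transcriptional control, and 32 genes of this control and of these enzymes were followed in natural killer (NK) cells. The genes were listed by name, and all 32 had an identifier in the files, out of 35275 identifiers in all. Each of them had a count in every library. A mean of at least 1 CPM (the count scaled to a common library size) was reached by 31 of the 32, and a mean of at least 5 CPM by 27. Fads2, with 2 to 5 counts per library, was the 1 member below 1 CPM.

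Sterol regulatory element-binding proteins (SREBP), encoded by Srebf1 and Srebf2, are made as precursors in the endoplasmic reticulum. Their escort SCAP carries them to the Golgi, where proteases release the active factor, and the INSIG proteins hold the complex back when sterols are plentiful. The released factors act on sterol regulatory elements, often beside sites of the factor NF-Y, in promoters of sterol and fatty acid genes. In lymphocytes this programme is known for supplying membrane lipid when cells grow and divide.

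The cells were spleen NK cells, enriched with a kit, sorted as CD3-negative and NK1.1-positive, and profiled by bulk RNA sequencing. There were 4 groups with 1 library each. Wild-type (WT) C57BL/6 mice and mice labelled Irf4-/-, named for loss of the transcription factor IRF4, were studied without tumour cells (control) or 20 days after B16-F10 cells, a mouse melanoma line, had been put into a vein (injected). The labels give neither the deleted part of Irf4 nor the age of the mice nor the number of animals behind a library. With 1 library per group a difference between 2 libraries has no replicate check. The 95% intervals in brackets beside log2 ratios cover counting error only, and PCR copies, with no molecular identifiers to mark them, are not independent. In bulk samples fewer cells of a type and less RNA per cell cannot be told apart.

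Total counts lay between 15878159 and 21104881. Irf4 itself had 93 and 57 counts in WT mice (control, then injected) and 188 and 236 in Irf4-/- mice, so it was higher under the knockout label; as the deleted part is not given, counts over the whole gene check nothing, and every genotype direction here is that of the label. All 10 NK cell markers had at least 1 CPM, with sums of 14549 to 16279 CPM. Monocyte and macrophage markers (12 of 13 at 1 CPM or more) summed to 41.1 and 95.8 CPM in WT mice, control then injected, and to 62.8 and 78.8 in Irf4-/- mice. B cell markers (7 of 7) summed to 34.4 and 13.2 CPM in WT and 38.9 and 23.1 in Irf4-/- mice. T cell markers (7 of 8) summed to 115 to 142 CPM, dendritic cell markers (2 of 6) to 690 to 1262, erythroid markers (6 of 8) to 20.1 to 110, platelet markers (3 of 5) to 9.04 to 17.0, neutrophil markers (0 of 8) to at most 0.915 and adipocyte markers (0 of 6) to at most 0.377. The dendritic cell sum was almost all Itgax, at 680 to 1248 CPM. Zbtb46 had 8.24 to 11.9 CPM, and Flt3, Xcr1, Clec9a and Siglech had means below 1 CPM. Melanoma markers (2 of 6) summed to 3.82 to 4.95 CPM. Of these, Mlana, Tyr, Tyrp1 and Dct had 0 counts in every library, while Pmel had 3.06 to 3.71 CPM and Mitf 0.754 to 1.24 CPM. The WT injected library stood apart: it had the fewest genes with a count (17678, against 17969 to 18684) and 5.88% of its counts in ribosomal protein genes (4.24% to 4.74% in the others). Over all genes with at least 1 CPM the median absolute log2 ratio was 0.190 and 0.209 in the pairs that hold it (genotype in injected mice, injection in WT mice) and 0.121 and 0.137 in the others. Its part in the members' values was not tested.

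Promoter sequence was taken from RefSeq (GRCm38.p6) for 25 of the 32 genes, as 33 windows of 250 bases upstream of a start. The sterol regulatory element, searched on both strands as TCACNCCAC, was found in 1 of the 33 (3.03%), that of Hmgcs1, and in 1.05% of all 32851 windows of the same length. The NF-Y box, searched on both strands as CCAAT, was found in 20 of the 33 (60.6%) and in 33.8% of all. A match describes letters, not a bound site. The 200 bases upstream of the start are shown for Hmgcs1, Mvd and Fasn, genes of the sterol and fatty acid arms. They were picked for lower levels in WT injected than in WT control, from 9 members with injection intervals below 0 in WT mice. Acly, another of the 9 with a window outside annotated exons, held no match to either motif in its 250 bases. Motifs were not tested against levels. The printed windows lie at chr13:119690151-119690350 (plus strand), chr8:122443423-122443622 (minus strand) and chr11:120824548-120824747 (minus strand), outside annotated exons. Capitals mark the matches to either motif.
Hmgcs1: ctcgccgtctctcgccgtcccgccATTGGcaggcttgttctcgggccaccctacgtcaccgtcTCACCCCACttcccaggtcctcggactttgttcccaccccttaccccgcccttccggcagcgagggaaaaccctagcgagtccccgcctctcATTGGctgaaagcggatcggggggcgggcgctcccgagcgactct
Mvd: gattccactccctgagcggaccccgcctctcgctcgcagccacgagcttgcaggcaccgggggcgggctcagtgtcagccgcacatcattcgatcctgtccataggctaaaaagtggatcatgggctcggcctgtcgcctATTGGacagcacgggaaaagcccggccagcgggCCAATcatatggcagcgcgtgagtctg
Fasn: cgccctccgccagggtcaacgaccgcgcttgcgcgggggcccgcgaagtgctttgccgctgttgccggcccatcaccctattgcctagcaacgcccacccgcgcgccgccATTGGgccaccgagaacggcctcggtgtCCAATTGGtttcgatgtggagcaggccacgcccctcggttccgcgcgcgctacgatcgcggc
Counted from the start, Hmgcs1 held the sterol element from -137 to -129, with NF-Y boxes on the minus strand from -176 to -172 and from -45 to -41. Mvd held boxes from -60 to -56 (minus strand) and from -27 to -23 (plus strand). Fasn held a box from -90 to -86 (minus strand) and 2 that overlap on opposite strands, from -62 to -58 and from -59 to -55, which print as 1 run of capitals.

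Between genes, levels were compared per length, as the FPKM the authors deposited. Acly, which encodes ATP-citrate lyase, the source of cytosolic acetyl-CoA, was the most abundant member in every library, with an FPKM of 85.7 and 77.4 in WT mice (control, then injected) and 83.7 and 90.1 in Irf4-/- mice. Next by mean FPKM came the desaturase gene Scd2 (33.3), Fasn (27.1), Srebf1 (25.9), the sterol isomerase gene Ebp (24.4), Srebf2 (20.7) and Scap (20.5). Neighbours in this order from Scd2 to Ebp overlapped in their FPKM over the 4 libraries: Scd2 ran from 27.1 to 38.3, Fasn from 25.3 to 30.9, Srebf1 from 22.8 to 29.1 and Ebp from 22.3 to 25.8. Srebf2 and Scap overlapped each other and lay below Ebp in every library. At the low end stood Hsd17b7 (0.968), Scd1 (0.896), Sqle (0.839) and Fads2 (0.124). Sqle encodes squalene epoxidase, an oxygen-dependent step of sterol synthesis.

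**Figure D1:**
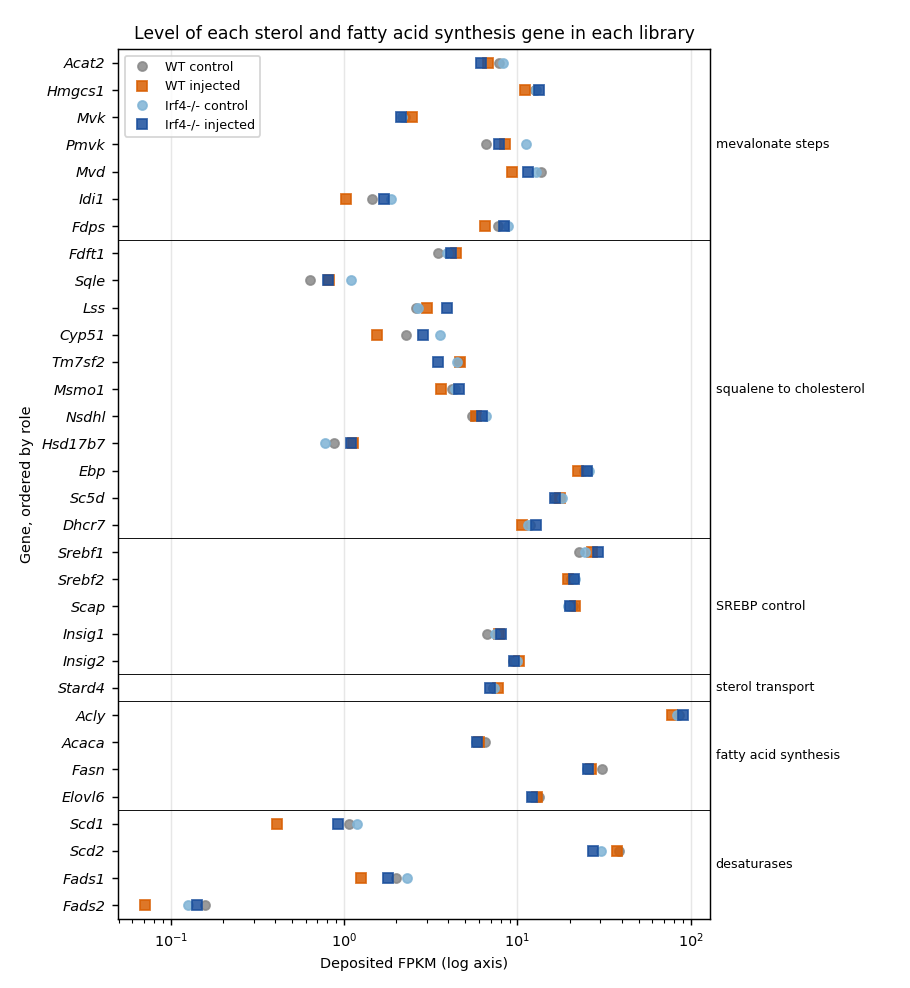
Deposited FPKM (log axis) of the 32 genes in the 4 libraries, 1 point per library, ordered by role. Levels run from Fads2 (mean 0.124) to Acly (mean 84.2), and for most genes the 4 points lie close together, with Scd1 (0.410 to 1.19) and Cyp51 (1.56 to 3.59) spread more widely.

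The members varied little across the 4 libraries. Among the 27 with a mean of at least 5 CPM the highest library exceeded the lowest by a median of 1.21-fold, against 1.23-fold for all 9674 genes with that minimum. Of the 27, 23 (85.2%) stayed within 1.5-fold, against 83.9% of those genes, and the widest range was that of Cyp51 (2.28-fold). Summed over the 18 sterol enzymes the level was 298 and 283 CPM in WT mice, control then injected, and 319 and 316 in Irf4-/- mice. Summed over fatty acid synthesis and elongation it was 820 and 735 CPM in WT and 733 and 771 in Irf4-/- mice. No member reached a 2-fold ratio with at least 5 CPM and an interval excluding 0 in any pair of libraries, while 1.80% of all genes did so for genotype in injected mice, 0.797% for genotype in control mice, 1.89% for injection in WT mice and 0.351% for injection in Irf4-/- mice.

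Tests were made with edgeR's quasi-likelihood method, with additive terms for genotype and for injection over the 4 libraries and Benjamini-Hochberg adjustment over 11998 genes. With 1 residual degree of freedom, the spread behind these p-values is only the departure of the 4 libraries from additivity, and it may be technical. No member was called at an adjusted p under 0.05. For genotype 0 of 31 members were called higher and 0 lower, against 1.22% and 0.258% of all genes. For injection 0 of 31 were called in either direction, against 0.333% of all genes higher and 0.392% lower. At an unadjusted p under 0.05 stood 2 members for genotype, Cyp51 and Scd2 (6.45%, against 10.4% of all genes), and 3 for injection, Srebf1, Scd1 and Lss (9.68%, against 14.2%). DESeq2 called 0 members, with 2 for genotype and 0 for injection at an unadjusted p under 0.05, and limma-voom called 0, with 2 and 4. The median log2 change over the members was 0.10 for genotype and -0.033 for injection, and over all genes -0.0012 and 0.0031.

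The genotype comparison addressed whether sterol and fatty acid genes differed between NK cells labelled Irf4-/- and WT. In injected mice 14 of 31 members had counting intervals above 0 and 5 below, where 25.6% of all genes with at least 1 CPM lay above and 24.8% below. The median log2 ratio of the members was 0.025, against 0.0014 over all genes. Of the 18 sterol enzymes 9 lay above 0 (Cyp51, Idi1, Lss, Fdps, Msmo1, Mvd, Dhcr7, Hmgcs1 and Ebp) and 1 below (Tm7sf2). In control mice 3 of 31 members lay above 0 (Pmvk, Sqle and Cyp51, with 14.7% of all genes) and 6 below (Scd2, Fasn, Acaca, Elovl6, Scap and Acly, with 19.8% of all genes), and the median was 0.050, against -0.019 over all genes. The count of 3 was 5 with median-of-ratios scaling or library totals and 6 with upper-quartile scaling, and that of 6 was 4 under each of these, where the intervals of Scap and Acly included 0. The shares of all genes under these other scalings are not given here. The genotype pairs share no library. Both had an interval above 0 for 1 member, Cyp51 (3.23%, against 7.05% of all genes), and below 0 for 3, Scap, Fasn and Scd2 (9.68%, against 7.40%). Under each of the other scalings Srebf1 joined Cyp51 and Scap dropped out, so that Fasn and Scd2 were left, with Elovl6 added by median-of-ratios scaling.

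**Figure D2:**
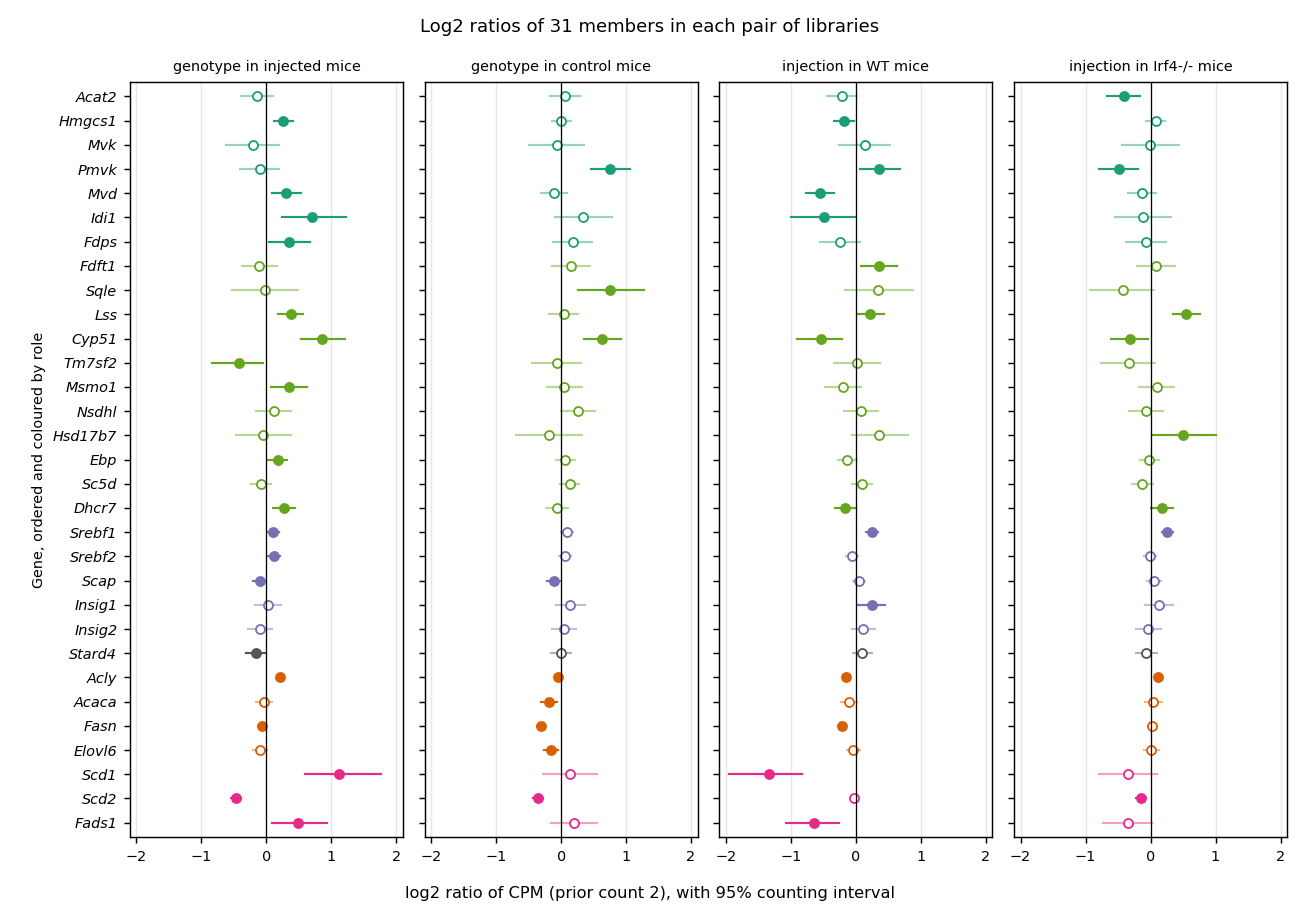
Log2 ratio of CPM (points) with the exact 95% counting interval (lines) for 31 members in each of the 4 pairs of libraries, coloured by role, with filled points where the interval excludes 0. Genotype is Irf4-/- over WT and injection is injected over control; most ratios lie near 0, with Scd1 at 1.12 and -1.33 in the pairs that hold WT injected, and Fads2 is left out for its low counts.

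Cyp51 encodes lanosterol 14-alpha-demethylase, which acts after the sterol rings have closed, and lies on chromosome 5 from 4081145 to 4104746 in GRCm38, minus strand. It was at 8.99 and 6.14 CPM in WT mice (control, then injected) and 14.0 and 11.2 in Irf4-/- mice, from 189, 114, 224 and 208 counts. Both libraries labelled Irf4-/- were above both WT libraries, and within each genotype the injected library was the lower one. The genotype log2 ratio of Cyp51 was 0.85 (0.53 to 1.21) in injected mice, the largest among members with at least 5 CPM, and 0.63 (0.35 to 0.92) in control mice. In the additive model its change was 0.75 (SE 0.197, edgeR adjusted p 0.132), which missed the threshold, and over 12 alternatives the adjusted p ranged from 0.0151 to 1.0. A fit that left out both WT control and the injection term gave 0.0277 (log2 change 1.04), and leaving out the term alone gave 0.788 (log2 change 0.74).

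The mevalonate steps lead from acetyl-CoA to farnesyl diphosphate. Idi1, isopentenyl diphosphate isomerase, was at 4.42 and 3.12 CPM in WT mice (control, then injected) and 5.62 and 5.16 in Irf4-/- mice, with both Irf4-/- libraries above both WT libraries. Its log2 ratio was 0.70 (0.24 to 1.22) in injected mice and 0.34 (-0.09 to 0.78) in control mice. Fdps, farnesyl diphosphate synthase, showed the same order of genotypes, at 9.61 and 8.13 CPM for WT and 10.9 and 10.4 for Irf4-/-, with a ratio of 0.35 (0.036 to 0.67) in injected mice. Pmvk, phosphomevalonate kinase, went another way and was highest in Irf4-/- control, at 7.85 and 10.1 CPM for WT and 13.2 and 9.40 for Irf4-/-. Its ratio was 0.75 (0.45 to 1.06) in control mice and -0.11 (-0.41 to 0.20) in injected mice. Hmgcs1, HMG-CoA synthase, the promoter of which holds the sterol element match, was at 40.9 and 36.0 CPM for WT and 40.9 and 43.2 for Irf4-/-. Its ratio was 0.26 (0.11 to 0.41) in injected mice, and in control mice, at 0.00091 (-0.15 to 0.15), no difference was detectable at this depth. Mvd had an interval above 0 in injected mice, at 0.30 (0.084 to 0.53), while Mvk, mevalonate kinase, and Acat2, acetoacetyl-CoA thiolase, had intervals including 0 in both genotype pairs.

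The next members act from squalene onwards. Lss, lanosterol synthase, was at 18.1 and 21.1 CPM in WT mice (control, then injected) and 18.6 and 27.3 in Irf4-/- mice, so the control libraries were alike and Irf4-/- injected stood highest. Its genotype log2 ratio was 0.37 (0.18 to 0.57) in injected mice and 0.037 (-0.19 to 0.26) in control mice. Sqle, from 60, 68, 78 and 67 counts, was at 0.75 (0.27 to 1.28) in control mice and -0.024 (-0.53 to 0.48) in injected mice. Tm7sf2, a sterol reductase gene, was lowest in Irf4-/- injected, at 6.95 and 7.05 CPM for WT and 6.62 and 5.21 for Irf4-/-, and its ratio was -0.43 (-0.83 to -0.047) in injected mice. Nsdhl, which takes part in removing methyl groups from the sterol, was at 11.9 and 12.5 CPM for WT and 14.2 and 13.5 for Irf4-/-, and its intervals included 0 in both pairs, though under each of the other 3 scalings that in control mice lay above 0. Fdft1, Sc5d and Hsd17b7 had intervals including 0 in both pairs as well, Sc5d except under upper-quartile scaling in control mice. In injected mice Msmo1, Ebp and Dhcr7 had log2 ratios of 0.34, 0.17 and 0.27 with intervals above 0, and in control mice their intervals included 0; the difference between the pairs was not tested.

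The 4 genes of fatty acid synthesis and elongation had intervals below 0 for genotype in control mice (19.8% of all genes did), and 3 of them, all but Acly, also did under each of the other scalings. Fasn, fatty acid synthase, was at -0.31 (-0.36 to -0.25), Acaca, acetyl-CoA carboxylase, at -0.19, the elongase gene Elovl6 at -0.15 and Acly at -0.054. Fasn was at 298 and 256 CPM in WT mice (control, then injected) and 241 and 244 in Irf4-/- mice, with WT control above the other three. In injected mice the ratio of Fasn was -0.071 (-0.13 to -0.012) and that of Acly 0.21 (0.17 to 0.26), on the opposite side of 0. The additive genotype change of Fasn was -0.18 (SE 0.107, edgeR adjusted p 0.647), which missed the threshold.

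Desaturases put double bonds into fatty acids, and their genes differed among themselves. Scd2, a stearoyl-CoA desaturase gene on chromosome 19 (44293674 to 44306864, plus strand), was at 209.8 and 205 CPM in WT mice (control, then injected) and 164 and 148 in Irf4-/- mice. Both Irf4-/- libraries were below both WT libraries, with log2 ratios of -0.47 (-0.54 to -0.40) in injected and -0.36 (-0.43 to -0.29) in control mice. The additive change of Scd2 was -0.41 (SE 0.0999, edgeR adjusted p 0.102), which missed the threshold. Over 12 alternatives its adjusted p ranged from 0.0118 to 1.0, with 0.0295 when both WT control and the injection term were left out (log2 change -0.39) and 0.431 when the term alone was (log2 change -0.40). Its neighbour Scd1 (44394455 to 44407879, minus strand) was at 5.19 and 1.99 CPM for WT and 5.68 and 4.46 for Irf4-/-, from 109, 37, 91 and 83 counts, and so was low in WT injected. B cell markers were lowest in that library as well, and their part in the Scd1 values was not tested. The genotype log2 ratio of Scd1 was 1.12 (0.59 to 1.76) in injected mice and 0.13 (-0.29 to 0.55) in control mice. Per length Scd2 exceeded Scd1 in FPKM by 35.9-fold in WT control, 91.3-fold in WT injected, 25.6-fold in Irf4-/- control and 29.5-fold in Irf4-/- injected. Fads1, a desaturase of polyunsaturated fatty acids, was also lowest in WT injected, at 6.90 and 4.36 CPM for WT and 7.93 and 6.18 for Irf4-/-, with a genotype ratio of 0.49 (0.08 to 0.93) in injected mice.

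**Figure D3:**
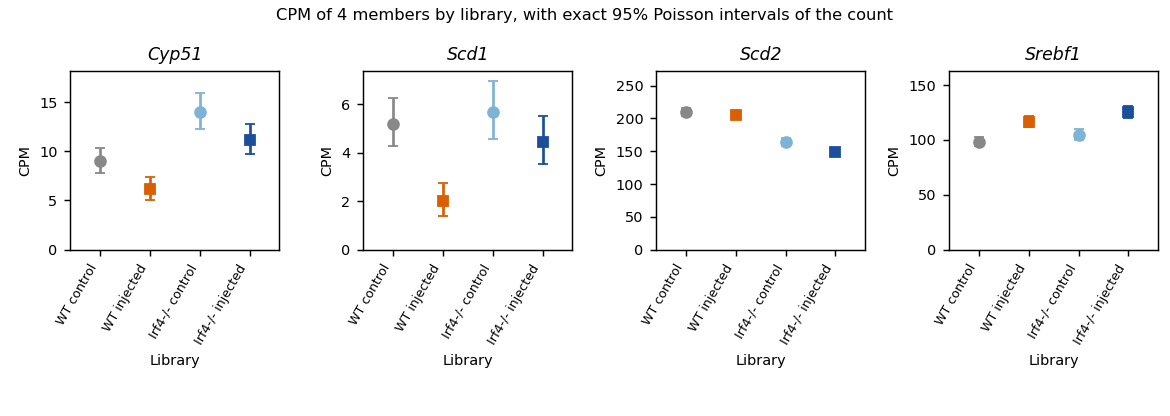
CPM (linear axis from 0) of Cyp51, Scd1, Scd2 and Srebf1 in the 4 libraries, with exact 95% Poisson intervals of the count, which cover counting error only. Cyp51 is higher and Scd2 lower in both Irf4-/- libraries, Scd1 is low in WT injected (1.99) and Srebf1 is higher in both injected libraries (117 and 125).

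Of the 5 genes of SREBP control, 2 had intervals above 0 for genotype in injected mice (Srebf1 and Srebf2, with 25.6% of all genes). In the same pair 1 lay below 0 (Scap, with 24.8% of all genes), and in control mice 1 did (Scap, with 19.8%). Srebf1 had genotype ratios of 0.10 (0.019 to 0.19) in injected and 0.092 (-0.002 to 0.19) in control mice, and Insig1 of 0.025 (-0.18 to 0.23) and 0.14 (-0.077 to 0.36). Srebf2, the factor mainly tied to sterol genes, was at 102 and 97.7 CPM in WT mice (control, then injected) and 107 and 106 in Irf4-/- mice, with genotype ratios of 0.12 (0.027 to 0.21) in injected and 0.067 (-0.026 to 0.16) in control mice. Scap was at 88.2 and 91.1 CPM for WT and 81.8 and 84.6 for Irf4-/-, and its ratio was -0.11 (-0.21 to -0.0068) and -0.11 (-0.21 to -0.0054) in the same pairs. Insig2 was at 25.6 and 27.8 CPM for WT and 26.5 and 25.9 for Irf4-/-, and its intervals included 0 in all 4 pairs.

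The injection comparison addressed how the genes differed between mice that had received B16-F10 cells and those that had not. In WT mice 5 of 31 members had intervals above 0 (Pmvk, Fdft1, Srebf1, Insig1 and Lss) and 9 below (Scd1, Fads1, Mvd, Cyp51, Idi1, Fasn, Hmgcs1, Dhcr7 and Acly), where 27.0% of all genes lay above and 29.6% below. The median log2 ratio of the members was -0.037, against -0.013 over all genes. In Irf4-/- mice 5 of 31 lay above 0 (Lss, Hsd17b7, Srebf1, Dhcr7 and Acly, with 20.1% of all genes) and 4 below (Pmvk, Acat2, Cyp51 and Scd2, with 17.4%), and the median was -0.023, against 0.012. The 9 in WT mice became 8 with median-of-ratios scaling or library totals and 7 with upper-quartile scaling. Under each of these the 5 above in Irf4-/- mice became 4, and Dhcr7 left both lists. The shares of all genes under these scalings are not given here. WT injected stands in both the WT injection pair and the genotype pair of injected mice, so opposite values in those pairs are not separate observations. The injection pairs share no library. Both had intervals above 0 for 2 members, Lss and Srebf1 (6.45%, against 9.50% of all genes), and below 0 for 1, Cyp51 (3.23%, against 9.86%).

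**Figure D4:**
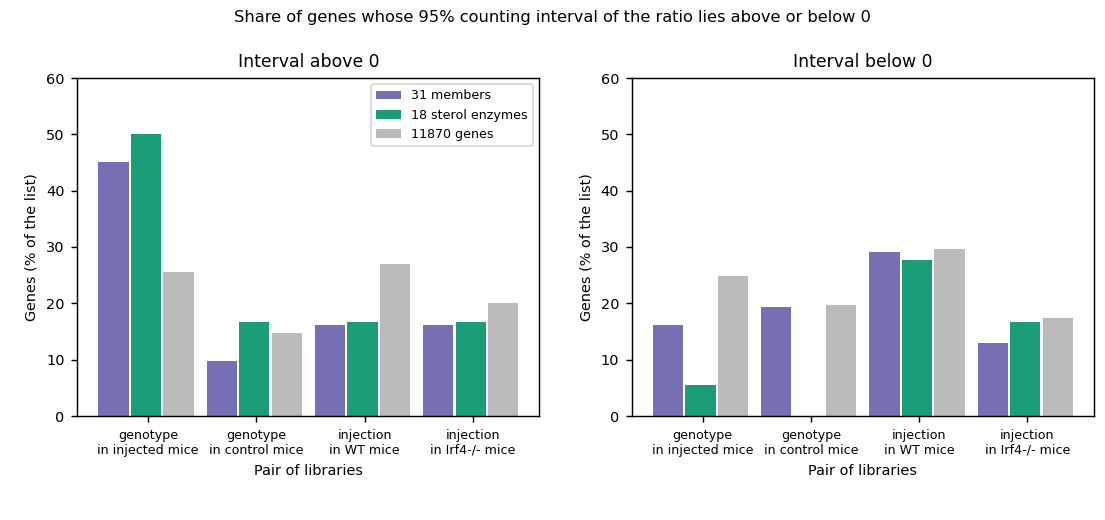
Share of genes (percent, axis from 0) whose counting interval of the log2 ratio lies above 0 (left) or below 0 (right) in each pair of libraries, for 31 members, the 18 sterol enzymes among them and all 11870 genes with at least 1 CPM. The members exceed the background above 0 for genotype in injected mice (14 of 31, against 25.6%) and lie at or below it elsewhere, while the sterol enzymes also stand above it, at 16.7% against 14.7%, for genotype in control mice.

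Srebf1, the factor mainly tied to fatty acid genes and a target of the sterol-sensing LXR receptors, lies on chromosome 11 from 60199089 to 60222581, minus strand. It was at 98.2 and 117 CPM in WT mice (control, then injected) and 105 and 125 in Irf4-/- mice, so both injected libraries were above both controls. The injection log2 ratio of Srebf1 was 0.25 (0.16 to 0.34) in WT and 0.26 (0.17 to 0.35) in Irf4-/- mice. In the additive model the change was 0.25 (SE 0.0934, edgeR adjusted p 0.248), which missed the threshold. Insig1, a target of SREBP that holds SCAP back, was at 18.0 and 21.3 CPM for WT and 19.9 and 21.7 for Irf4-/-, with a ratio of 0.24 (0.038 to 0.45) in WT and 0.13 (-0.087 to 0.34) in Irf4-/- mice.

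Scd1 had the largest injection ratio, -1.33 (-1.96 to -0.83) in WT mice, against -0.34 (-0.80 to 0.095) in Irf4-/- mice. Its mean over the WT pair was below the 5 CPM that the 2-fold rule asked for. The additive change of Scd1 was -0.83 (SE 0.319, edgeR adjusted p 0.271), which missed the threshold. Fads1 was at -0.65 (-1.07 to -0.26) in WT and -0.35 (-0.74 to 0.015) in Irf4-/- mice. Mvd, mevalonate diphosphate decarboxylase, was lowest in WT injected, at 24.1 and 16.5 CPM for WT and 22.4 and 20.4 for Irf4-/-. Its injection ratio was -0.55 (-0.76 to -0.34) in WT and -0.13 (-0.35 to 0.077) in Irf4-/- mice. For Fasn the ratio was -0.22 (-0.27 to -0.16) in WT and 0.02 (-0.043 to 0.082) in Irf4-/- mice, and for Hmgcs1 it was -0.18 (-0.33 to -0.035) and 0.078 (-0.072 to 0.23). These 3 genes are the ones whose promoters are printed above.

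Cyp51 had injection ratios of -0.54 (-0.90 to -0.21) in WT and -0.32 (-0.60 to -0.045) in Irf4-/- mice, and Lss of 0.22 (0.012 to 0.43) and 0.55 (0.35 to 0.77). The additive injection change of Lss was 0.39 (SE 0.153, edgeR adjusted p 0.284), which missed the threshold. Pmvk lay on opposite sides of 0, at 0.36 (0.057 to 0.68) in WT and -0.49 (-0.79 to -0.20) in Irf4-/- mice. Acat2, lowest in Irf4-/- injected at 17.7 and 15.2 CPM for WT and 18.4 and 13.8 for Irf4-/-, was at -0.21 (-0.44 to 0.015) and -0.41 (-0.66 to -0.17). Stard4, a carrier of cholesterol between membranes, was at 37.0 and 39.6 CPM for WT and 36.9 and 35.3 for Irf4-/-. Its intervals included 0 in both injection pairs, and its genotype ratio was -0.16 (-0.32 to -0.011) in injected and -0.0027 (-0.16 to 0.15) in control mice.

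Fdft1, squalene synthase, was at 9.99 and 12.8 CPM in WT mice (control, then injected) and 11.1 and 11.8 in Irf4-/- mice, with an injection ratio of 0.35 (0.079 to 0.63) in WT mice. Its exons share 774 bases, 18.3% of their length, with Ctsb on the opposite strand, which had 2548 to 3158 counts against 178 to 237 for Fdft1. Without the strand setting of the authors' counting, reads of this overlap cannot be assigned with certainty. Some 50-base stretches of the members' transcripts also stand in transcripts of another gene, on either strand. Their share was 39.1% in Acat2 (mostly with Acat3), 30.4% in Acaca (mostly Gm5182) and 26.5% in Fdft1 (mostly Ctsb). It was 26.2% in Fdps (mostly Gm43738) and 25.3% in Idi1 (mostly Gm13502). The values of these members are uncertain, and the share does not bound the error, which also depends on the counts of the other gene. Smaller shares were 11.6% in Hmgcs1, 9.96% in Scap and 9.87% in Tm7sf2, with at most 3.98% in the other 24 members, Cyp51, Scd1 and Scd2 included. Even so, the exons of Cyp51 share 166 bases (3.76%) with Akap9 on the opposite strand, which had 2522 to 3232 counts. Those of Tm7sf2 share 532 bases (12.1%) with Vps51 on the same strand, which had 594 to 809 counts. Reads of these overlaps cannot be assigned with certainty either.

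Beside these members, 49 other genes of the pathway were listed by role, and 43 of them reached a mean of 1 CPM. For genotype in injected mice 14 of the 43 had intervals above 0 (32.6%, against 25.6% of all genes) and 13 below (30.2%, against 24.8%). In control mice 8 lay above (18.6%, against 14.7%) and 10 below (23.3%, against 19.8%). For injection 11 lay above (25.6%, against 27.0%) and 16 below (37.2%, against 29.6%) in WT mice, and 8 above (18.6%, against 20.1%) and 6 below (14.0%, against 17.4%) in Irf4-/- mice. In the additive model edgeR called 0 higher (1.22% of all genes) and 1 lower (0.258%) for genotype, Abca1, and 0 for injection (0.333% higher and 0.392% lower). At an unadjusted p under 0.05 stood 7 for genotype (16.3%, against 10.4% of all genes tested) and 6 for injection (14.0%, against 14.2%). DESeq2 called 0 for either effect (Abca1 adjusted p 0.963), and limma-voom called Abca1 for genotype (adjusted p 0.0367) and 0 for injection.

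Abca1 encodes the transporter that exports cholesterol from cells and is a target of LXR. It was at 101 and 207 CPM in WT mice (control, then injected) and 77.2 and 91.5 in Irf4-/- mice, from 2131, 3852, 1236 and 1704 counts. WT injected stood far above the other three, and both Irf4-/- libraries were below both WT libraries. With the genotype label Abca1 fell by 0.79 log2 units (SE 0.158, edgeR adjusted p 0.0369), and the call stayed under the other scalings and filters. The additive injection change was 0.65 (SE 0.157, edgeR adjusted p 0.0977), which missed the threshold. That change passed in edgeR with library totals (adjusted p 0.0245), upper-quartile scaling (0.0298) or no filter (1.95e-06). The genotype log2 ratio of Abca1 was -1.18 (-1.26 to -1.10) in injected and -0.39 (-0.50 to -0.29) in control mice. Its injection ratio was 1.03 (0.96 to 1.11) in WT and 0.25 (0.14 to 0.35) in Irf4-/- mice. With genotype the only term and all 4 libraries kept, the change was -0.87 and the call was already lost (adjusted p 0.757). Fits with genotype the only term and 1 library left out gave -0.25 without WT injected and -1.29 without WT control. They gave -0.75 without Irf4-/- control and -0.99 without Irf4-/- injected. Each such fit leaves 1 genotype with 1 library, so only the size of the change is given. Macrophages also express Abca1, and the sum of the monocyte and macrophage markers was highest in WT injected (95.8 CPM) but lowest in WT control (41.1 CPM). Every marker of this list except Lyz2, Csf1r and Marco was also highest in WT injected. Vcam1 was at 3.04 and 19.1 CPM in WT mice (control, then injected) and 5.06 and 12.9 in Irf4-/- mice. C1qa was at 1.71 and 6.89 CPM for WT and 2.81 and 4.78 for Irf4-/-. The exceptions differed from the sum. Lyz2 was lowest in WT injected (4.79 CPM), and Csf1r (10.2 CPM) and Marco (1.66 CPM) were highest in Irf4-/- injected. The part of such cells in the Abca1 result was not tested. Abcg1, a related sterol exporter, was at 120.2 and 109 CPM for WT and 89.3 and 92.0 for Irf4-/-, lower in both Irf4-/- libraries, with an additive genotype change of -0.33 (SE 0.0962, edgeR adjusted p 0.181), which missed the threshold.

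Among the other pathway genes with the largest ratios, none of which passed the test, Acsl3 and Acsl1, which activate fatty acids, were highest in WT injected. Their log2 ratios were -1.003 (-1.44 to -0.62) and -0.54 (-0.84 to -0.25) for genotype in injected mice and 0.67 (0.32 to 1.05) and 1.001 (0.70 to 1.33) for injection in WT mice. Gpam, the first enzyme of glycerolipid synthesis, was at 9.28 and 14.1 CPM for WT and 7.24 and 11.0 for Irf4-/-, higher in the injected library of each genotype, with injection ratios of 0.59 (0.33 to 0.87) in WT and 0.59 (0.26 to 0.94) in Irf4-/- mice. Mylip, a ubiquitin ligase that sends lipoprotein receptors for degradation, was highest in Irf4-/- injected, at 297 and 279.7 CPM for WT and 299.9 and 388 for Irf4-/-. Erlin1, part of a complex in sterol-regulated degradation, was at -0.51 (-0.91 to -0.12) for injection in WT and -0.49 (-0.89 to -0.12) in Irf4-/- mice, and the elongase gene Elovl5 at 0.055 (-0.03 to 0.14) and 0.36 (0.27 to 0.45). For genotype in control mice Acat1, the mitochondrial thiolase, was at -0.27.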

How the data were processed

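RNA of sorted spleen NK cells, 1 library in each of 4 groups, was deposited as 2 tables. The authors deposited raw whole-number counts per Ensembl gene and FPKM values, which equal the count over the library total and a fixed gene length, as checked on the values. TopHat, edgeR and the build mm10 are named, without versions, per the submitters' processing notes. For counter, annotation and strand setting, the tool or setting is not given in the sources used here. GENCODE M21 (GRCm38) supplied coordinates and matched 34490 of 35275 identifiers to symbols.

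Counts were TMM-scaled in edgeR 4.0.16 (R 4.3.3). Log2 ratios used a prior count of 2, with exact Clopper-Pearson 95% intervals. The additive quasi-likelihood test took genes reaching 1 CPM in 2 or more libraries. Its prior had 9.62 degrees of freedom, and the SE is the change over the square root of F. What edgeR names the biological coefficient of variation was 9.98%. With 1 library per group it reflects departures from additivity, which may be technical. At these depths 3 counts, the limit that a count of 0 allows, were 0.143 to 0.187 CPM. Both steps were tested on simulated data. For the additive test these data had no injection effect and the same dispersion for every gene. They therefore cannot show how the test behaves when libraries depart from additivity. Alternatives were FPKM in place of CPM (pseudocount 0.1), other scalings, filters, folds and prior counts, DESeq2 1.42.0, limma-voom (limma 3.58.1), a term left out and each library left out.

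Members with the largest ratios in a pair (up to 6, at least 5 CPM), SREBP and INSIG genes, and of other pathway genes up to 4 per pair or any called were named with values; Acly, Hmgcs1, Idi1, Scd1 and Sqle were added after their values were seen. Members and lists were chosen with earlier results of these data known.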

Additional observations from a re-analysis of the deposited data

Results flagged for a closer look

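For 3 members the counting intervals lay on opposite sides of 0 in 2 pairs of libraries under the same contrast. The share of all genes that did so is not given here, so this count has no background beside it. The difference between the pairs was not tested, since 1 library per group leaves no degree of freedom for it. For injection Pmvk had a log2 ratio of 0.36 in WT mice and -0.49 in Irf4-/- mice. Dhcr7, the last reductase of cholesterol synthesis, had -0.16 in WT mice and 0.17 in Irf4-/- mice. Acly had -0.15 in WT mice and 0.12 in Irf4-/- mice. For genotype Acly had -0.054 in control mice and 0.21 in injected mice, which comes from the same 4 values. Under median-of-ratios or upper-quartile scaling, or with library totals, Pmvk and Acly still lay on opposite sides for injection, while Dhcr7 for injection and Acly for genotype did not.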

How the results depend on the processing

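The median log2 ratio of the members kept its sign in all 4 pairs under the scalings, prior counts, minimums and FPKM values tried. The count of members with an interval above 0 for genotype in control mice was 3, and 5 with median-of-ratios scaling, 6 with upper-quartile scaling and 5 with library totals. The share of all genes is given for the first count only (14.7%), so the other counts have no background beside them. For genotype in injected mice the count below 0 was 5, and 6 with median-of-ratios scaling. The counts below 0 for injection in WT mice and above 0 in Irf4-/- mice also moved with scaling, as given with those pairs. At 2-fold no member passed in any pair. At 1.5-fold there was 1 for genotype in injected mice, 2 for genotype in control mice and 1 for injection in WT mice. Of 9674 genes averaging 5 CPM or more over the libraries, 27 of them members, 686, 248 and 823 reached 1.5-fold in these pairs. Those 3 background counts rest on the ratio alone, without the interval condition. At 2-fold with a minimum of 1 CPM there was 1 for genotype in injected mice and 1 for injection in WT mice (Scd1 in both), with no background given. Members called for genotype by edgeR numbered 0 higher and 0 lower. With no filter there was 1 higher, Cyp51 (adjusted p 0.0151), and 1 lower, Scd2 (adjusted p 0.0118). Leaving out each library in turn, together with the injection term, gave 0 to 1 higher and 0 to 1 lower; the calls were Cyp51 (adjusted p 0.0277) and Scd2 (adjusted p 0.0295) without WT control, where the lone WT library is assumed to vary like the others. With the term alone left out 0 were called. The cause was not tested. Members called for injection stayed at 0 under the alternatives run. No paired analysis was possible because each group had 1 library and the labels carry no replicate numbers. Depth limits what a ratio can show for Scd1 (37 to 109 counts), Hsd17b7 (57 to 97), Idi1 (58 to 96), Sqle (60 to 78) and Fads2 (2 to 5).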
